A study of Mus musculus with 6 samples.

Results

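The NFκB subunits and the regulators of the noncanonical NFκB pathway were examined in gastrocnemius muscle, the large muscle of the calf. All 10 genes were found among the 23997 gene symbols of each library. They were chosen by gene name with the difference between the genotypes in these same libraries already in view, and *Relb*, *Nfkb2* and *Map3k14* are genes that the study itself selected on these mice. Their differences between the genotypes are therefore given as a description with no p for any gene, and how many passed a threshold in the fit of all genes is given only beside the share of all genes that did. The HrasG12V group held mice 2276, 2278 and 2279, which carry 1 *Hras* allele coding for the G12V change and Caggs-Cre (Caggs-Cre+/HrasG12V/+). The wild-type (WT) group held littermates 2277, 2280 and 2281, which carry the allele in its unrecombined form and no Cre (Caggs-Cre-/HrasflG12V/+). These genotypes are those of the study's methods, while the labels give only HrasG12V/+ and Hras+/+. All 6 mice were untreated, 21 days old and of a mixed inbred background, with n = 3 mice per genotype and 1 RNAseq library per mouse. The CAG promoter drives Cre in most cell types, so the G12V allele was not confined to muscle fibers, and the mutation and the presence of Cre cannot be told apart.

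NFκB proteins are dimers of 5 related subunits that bind DNA at κB sites. In the canonical pathway, receptors for tumor necrosis factor or interleukin 1 activate a kinase complex that removes the inhibitor IκBα (*Nfkbia*), which releases dimers of RelA (*Rela*) or c-Rel (*Rel*) with the product of *Nfkb1*. In the noncanonical pathway, receptors such as the lymphotoxin β receptor stop the TRAF2 and TRAF3 adaptors from degrading the kinase NIK (*Map3k14*), and NIK then leads to processing of the *Nfkb2* precursor into the partner of RelB. *Nfkb2*, *Relb*, *Nfkbia* and *Tnfaip3*, which encodes a ubiquitin-editing enzyme that limits the canonical pathway, are known NFκB target genes. In skeletal muscle NFκB signaling is known for its part in atrophy and in satellite cell differentiation, and both pathways are prominent in lymphocytes and lymphoid organs.

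Matches to the κB consensus, the sequence recognized by NFκB dimers, were looked for on both strands in the 250 bases before each RefSeq start (GRCm38.p6), because the same genes both encode NFκB and are regulated by it. Sequences were found for 8 of the 10 genes, with *Relb* and *Nfkb1* not among them, and 5 of the 8 held a match in at least 1 window, as did 4.46% of all 27025 genes. The matches are shown in capitals below, on the strand of the gene, for the genes with a match. Overlapping matches were joined in *Nfkb2* and *Rel*, and a stretch of at most 30 bases is given for *Nfkb2*, whose annotated exons cover part of these windows.
Nfkb2, chr19:46304688-46304717: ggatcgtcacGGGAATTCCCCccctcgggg
Nfkb2, chr19:46304716-46304736: ggggccgaaaGGGGCTTTCCc
Nfkb2, chr19:46305449-46305478: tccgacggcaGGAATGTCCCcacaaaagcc
Nfkb2, chr19:46305695-46305724: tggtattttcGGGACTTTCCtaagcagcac
Nfkbia, chr12:55492648-55492706: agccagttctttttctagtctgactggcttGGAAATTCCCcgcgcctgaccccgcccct
Rel, chr11:23771022-23771091: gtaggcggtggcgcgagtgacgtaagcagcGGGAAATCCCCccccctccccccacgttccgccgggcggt
Tnfaip3, chr10:19015411-19015452: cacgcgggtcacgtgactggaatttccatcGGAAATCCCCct
Traf3, chr12:111166330-111166369: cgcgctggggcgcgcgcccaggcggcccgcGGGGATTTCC
A second match of *Tnfaip3*, 125 bases before the start, is not shown. *Map3k14*, *Traf2* and *Rela* had no match in these windows, which says only that the letters are not there. The genes with a match did not share a pattern between genotypes in the deposited values that follow, since *Traf3* and *Nfkbia* overlapped between the groups and *Nfkb2* did not.

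Values are FPKM, a read number that the authors scaled to transcript length and to library size, so levels can be compared between genes. Read counts were not among the files, and the precision of each value is known only from the spread between mice. The FPKM sum of a library was 413020 to 814013 and highest in HrasG12V mouse 2276, while over the genes tested the median was 6.39 to 6.64 FPKM. *Hras* itself was at 58.8, 28.9 and 16.0 FPKM in HrasG12V mice 2276, 2278 and 2279 and at 36.0 to 51.8 FPKM in the WT group; both alleles are summed, so this does not check the labels. Of the muscle markers, *Des*, *Ttn*, *Mb* and *Pvalb* were high in every mouse, *Acta1* and *Myh4* were listed at 0 in all 6 and *Ckm* in 5. An exact 0 can therefore be a failed estimate in these files and is not read as a lack of transcript. Markers of lymphoid tissue separated the HrasG12V mice. The summed FPKM of 7 B cell genes was 0.639 to 1.14 in WT mice, 1.34 in mouse 2276 and 81.0 and 64.5 in mice 2278 and 2279, and that of 6 T cell genes was 0.638 to 0.898, 1.16, 31.8 and 39.9. All 7 B cell genes and all 6 T cell genes were above every WT mouse in both mice 2278 and 2279, against 1 and 4 in mouse 2276. For 5 lymph node stroma genes the sum was 2.65 to 7.93 in WT mice, 6.97 in mouse 2276 and 252 and 378 in mice 2278 and 2279, and none of these genes was above the WT range in mouse 2276. Neutrophil genes (5 markers) summed to 0.716 to 3.57 FPKM in the WT group and to 19.7, 130 and 50.8 in mice 2276, 2278 and 2279, and macrophage genes (5 markers) to 65.1 to 73.7 and to 81.0, 189 and 102. Endothelial genes (4 markers) had a lower sum on the deposited scale, at 94.5 to 111 against 125 to 151 FPKM. Of these genes only *Cdh5* did not overlap between the groups.

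In WT muscle the most abundant of the 10 transcripts was *Nfkbia*, at 29.5 ± 1.70 FPKM (SD, n = 3), followed by *Rela* at 9.30 ± 0.439 and *Nfkb1* at 8.77 ± 0.616, whose values overlapped. *Traf2* (5.77 ± 0.291), *Traf3* (5.63 ± 0.627) and *Nfkb2* (4.81 ± 0.608) came next, and each overlapped its neighbor in this order. *Relb*, at 2.81 ± 0.556 FPKM, was below all of these in every WT mouse. *Tnfaip3* (1.47 ± 0.159) and *Map3k14* (1.35 ± 0.0159) overlapped each other, and *Rel* was the lowest in every WT mouse, at 1.14 ± 0.0985 FPKM. In WT gastrocnemius *Rela* and *Nfkb1* were thus the more abundant subunits, and *Relb* and *Rel* made up 10.4% ± 1.46 and 4.25% ± 0.526 (SD, n = 3) of the summed FPKM of the 5 subunits.

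*Relb* was 2.16 times as high in HrasG12V as in WT muscle on the deposited FPKM scale. It was at 5.99, 5.72 and 6.49 FPKM in HrasG12V mice 2276, 2278 and 2279 and at 2.87, 3.33 and 2.22 FPKM in the WT group 2277, 2280 and 2281. The lowest HrasG12V mouse was well above the highest WT mouse, and mouse 2276 lay between the other HrasG12V mice. On the deposited scale the summed B cell, T cell, macrophage and neutrophil genes were above every WT mouse in all 3 HrasG12V mice. The excess was least in mouse 2276. There, 1 of 7 B cell, 4 of 6 T cell, 2 of 5 macrophage and 4 of 5 neutrophil genes exceeded every WT mouse. So did 43.1% of all genes. The sums were not rescaled to the same total, and their part in the level of *Relb* was not tested. The log2 fold change, which is on the log2(FPKM + 0.1) scale here and throughout and understates changes of low values, was 1.10 (standard error 0.18). It was 1.08 in mouse 2276 alone, 1.02 in mouse 2278 and 1.20 in mouse 2279 against the WT mean. How alike the HrasG12V mice were depended on the scaling of the libraries. Per 1000000 of each library's FPKM sum, *Relb* was at 7.36, 13.3 and 15.7 in mice 2276, 2278 and 2279 and at 5.48, 6.78 and 4.06 in WT mice 2277, 2280 and 2281, so the groups still did not overlap but mouse 2276 was close to the highest WT mouse. In a bulk muscle sample, more transcript per cell and more cells that express the gene cannot be told apart.

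*Nfkb2*, which encodes the precursor of the RelB partner, was at 7.10, 8.82 and 8.36 FPKM in HrasG12V mice 2276, 2278 and 2279 and at 5.42, 4.80 and 4.20 FPKM in the WT group 2277, 2280 and 2281. On the deposited scale the groups did not overlap, and mouse 2276 was the lowest of the HrasG12V mice. Its mean was 8.09 ± 0.888 against 4.81 ± 0.608 FPKM (SD, n = 3), and the log2 fold change was 0.74 (standard error 0.16). The *Nfkb2* locus (chromosome 19 from 46304320 to 46312385, plus strand, GRCm38, GENCODE vM21) overlaps *Psd* on the opposite strand. The libraries were stranded, but the strand setting of the counting is not given in the sources used here. *Relb* (chromosome 7 from 19606217 to 19629438, minus strand) overlaps no other annotated gene.

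*Map3k14*, the gene of the kinase NIK, was at 1.62, 2.04 and 2.44 FPKM in HrasG12V mice 2276, 2278 and 2279 and within 1.33 to 1.36 FPKM in all 3 WT mice. Every HrasG12V mouse was above every WT mouse, but by unequal amounts, with log2 differences from the WT mean of 0.25, 0.56 and 0.81. The log2 fold change was 0.54 (standard error 0.21), and with mouse 2276 as the only HrasG12V mouse it was 0.25. *Map3k14* (chromosome 11 from 103219762 to 103267472, minus strand) overlaps the noncoding entry *1700028N14Rik* on the same strand, whose reads could be divided between the entries.

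The adaptors that restrain NIK differed from each other. *Traf2* was at 9.48, 8.39 and 6.41 FPKM in HrasG12V mice 2276, 2278 and 2279 and at 5.50, 5.73 and 6.07 FPKM in the WT group 2277, 2280 and 2281. On the deposited scale no values overlapped, the order of the HrasG12V mice was the reverse of that of *Map3k14*, and mouse 2279 lay close to the WT range. With libraries rescaled to the same total FPKM, mouse 2276 was the lowest HrasG12V mouse for both genes. *Traf2* was then at 11.6, 19.5 and 15.5 in mice 2276, 2278 and 2279, against 10.5 to 11.7 in the WT group. On that scale mouse 2276 was inside the WT range of *Traf2* and mouse 2279 was above it. The log2 fold change of *Traf2* was 0.46 (standard error 0.18). *Traf3* was at 5.70, 6.01 and 4.46 FPKM against 4.92, 5.89 and 6.09 FPKM, with overlapping groups and a log2 fold change of -0.07 (standard error 0.17). *Traf3* was the 1 gene of the noncanonical arm without a higher mean in HrasG12V muscle.

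**Figure D1:**
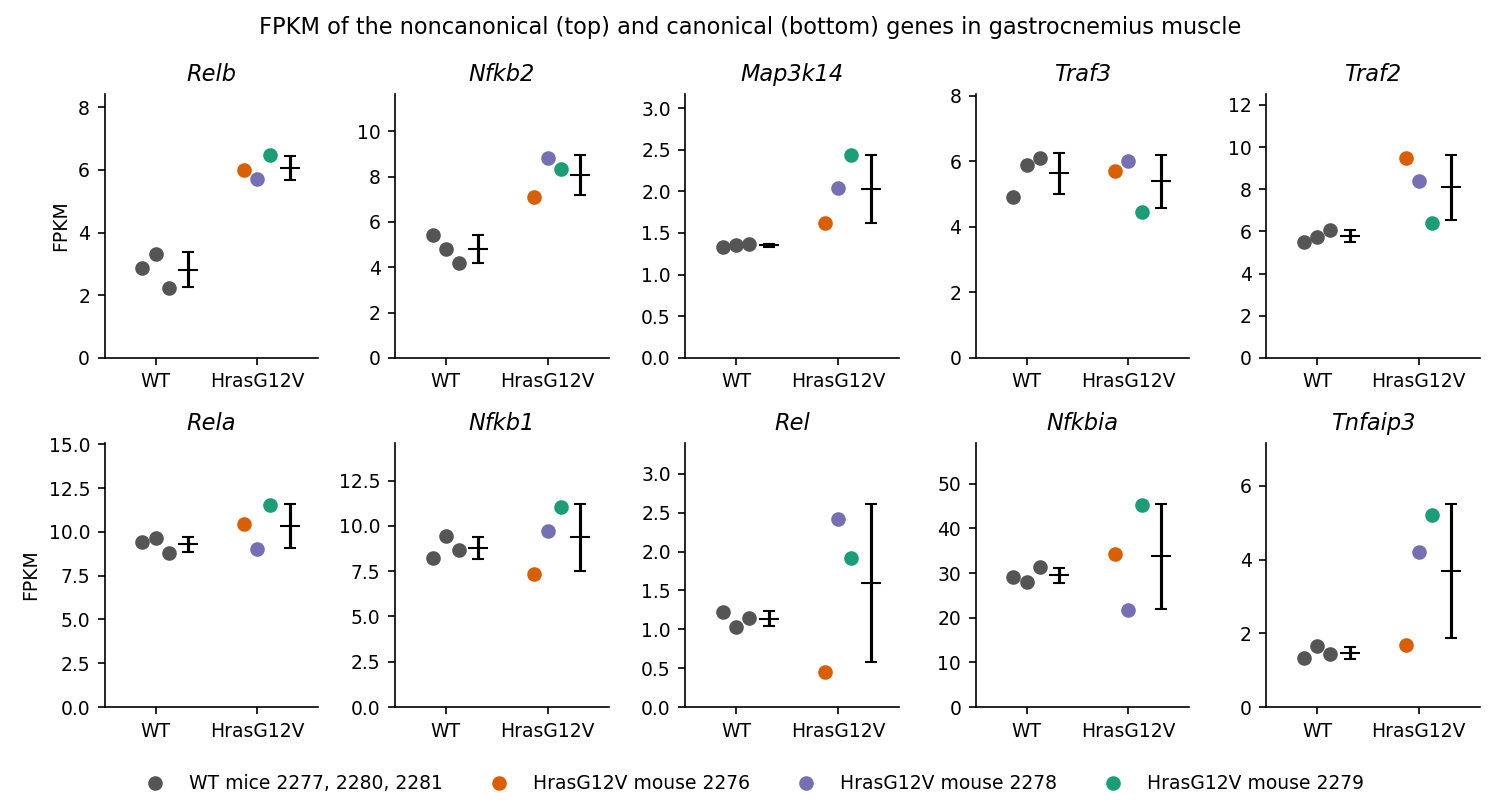
FPKM of the 10 genes in each mouse, with the noncanonical arm in the top row and the canonical arm in the bottom row. Points are mice, and bars beside them are the mean ± SD of 3 mice. On this deposited scale *Relb*, *Nfkb2*, *Map3k14*, *Traf2* and *Tnfaip3* do not overlap between the genotypes, while *Rel* and *Tnfaip3* are spread widely among the HrasG12V mice.

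Transcripts of the canonical subunits differed less between the genotypes. *Rela* was at 10.5, 9.004 and 11.5 FPKM in HrasG12V mice 2276, 2278 and 2279 and at 9.39, 9.68 and 8.82 FPKM in the WT group 2277, 2280 and 2281, with mouse 2278 inside the WT range (log2 fold change 0.15, standard error 0.15). *Nfkb1* was at 7.35, 9.70 and 11.03 FPKM against 8.23, 9.44 and 8.65 FPKM, with 1 HrasG12V mouse below and 2 above the WT range (log2 fold change 0.08, standard error 0.19). For both genes the difference was smaller than the spread among the HrasG12V mice. *Rel* was at 0.455 FPKM in HrasG12V mouse 2276, 2.41 in mouse 2278 and 1.92 in mouse 2279, against 1.23, 1.03 and 1.15 FPKM in the WT group. It was thus below every WT mouse in mouse 2276 and above every WT mouse in mice 2278 and 2279, which had the highest B cell and T cell sums. The 3 HrasG12V mice spanned 2.18 on the log2 scale, against 0.23 for the WT mice, and the log2 fold change of 0.20 had a standard error of 0.57. Without mouse 2276 it was 0.87, and with that mouse alone it was -1.15. *Rel* is known as the subunit most restricted to lymphoid and myeloid cells, and the part of such cells in its level was not tested.

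The inhibitors *Nfkbia* and *Tnfaip3* had different patterns. *Nfkbia* was at 34.3, 21.8 and 45.2 FPKM in HrasG12V mice 2276, 2278 and 2279 and at 29.2, 28.0 and 31.4 FPKM in the WT group 2277, 2280 and 2281. Its HrasG12V values lay on both sides of the WT range and mice 2278 and 2279 were at the extremes (log2 fold change 0.13, standard error 0.28). *Tnfaip3* was at 1.69, 4.19 and 5.22 FPKM against 1.33, 1.65 and 1.44 FPKM. On the deposited scale mouse 2276 was only just above the highest WT mouse, at a log2 difference of 0.19 from the WT mean. Mice 2278 and 2279 were at 1.45 and 1.76. The log2 fold change of 1.13 (standard error 0.41) was 1.61 without mouse 2276. Its mean was of a size with that of *Relb*, but the distribution over mice was not.

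**Figure D2:**
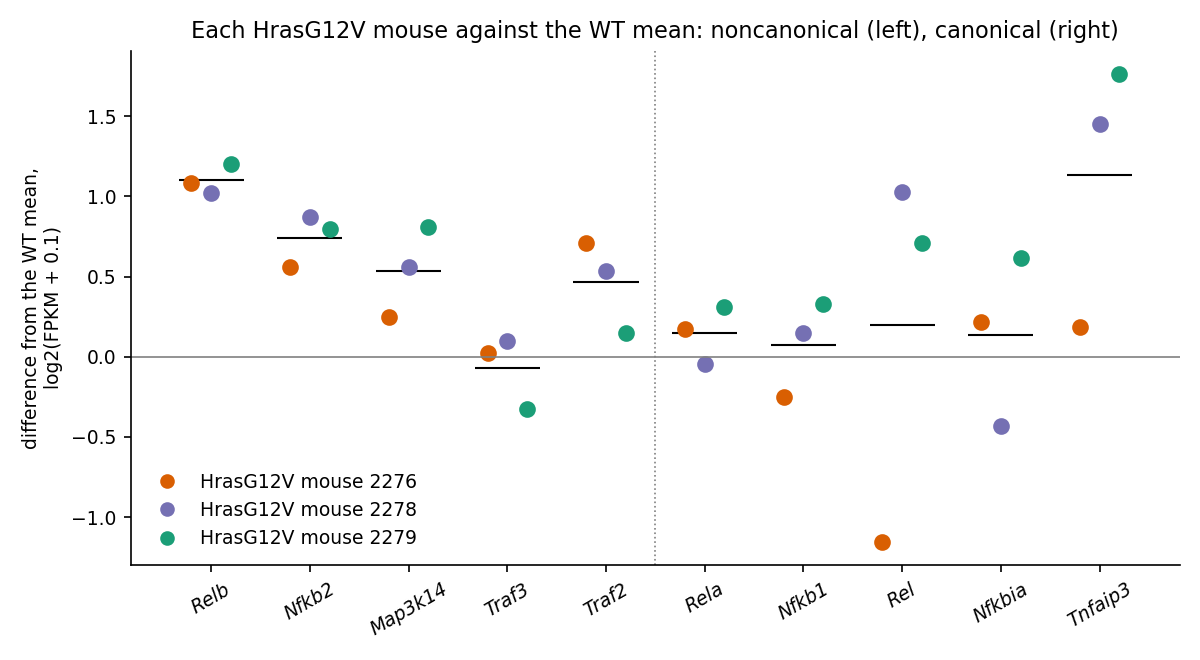
Difference of each HrasG12V mouse from the mean of the 3 WT mice in log2(FPKM + 0.1), for the noncanonical genes on the left and the canonical genes on the right of the dotted line. Points are single mice and black lines their mean; on the deposited scale the 3 mice lie close together for *Relb* (1.02 to 1.20) and far apart for *Rel* (-1.15 to 1.03) and *Tnfaip3* (0.19 to 1.76).

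Over the 5 noncanonical genes the median log2 fold change was 0.54 and over the 5 canonical genes 0.15, a difference of 0.39. Over all 13359 genes tested the median was -0.03. The difference between the arms was 0.39 in mouse 2276, 0.41 in mouse 2278 and 0.18 in mouse 2279, and between -0.05 and 0.03 in the WT mice set against their own mean. Without mouse 2279 the difference of the medians was 0.67, and in the other sets that left out 1 mouse it lay between 0.29 and 0.45. The arms differed within themselves as well, since *Traf3* and *Tnfaip3* each stood apart from the other genes of their arm.

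Ratios between 2 genes of 1 mouse do not depend on how libraries were scaled to each other, and 9 such ratios were formed with the values already known. *Relb* over *Rela* was 0.572, 0.635 and 0.563 in HrasG12V mice 2276, 2278 and 2279 and 0.306, 0.344 and 0.252 in WT mice 2277, 2280 and 2281. *Nfkb2* over *Nfkb1* was 0.966, 0.909 and 0.758 against 0.658, 0.508 and 0.486. Both ratios were higher in every HrasG12V mouse, with mouse 2276 no lower than mouse 2279. *Traf2* over *Traf3* was 1.66, 1.40 and 1.44 against 1.12, 0.973 and 0.997, and *Map3k14* over *Traf3* was 0.284, 0.340 and 0.546 against 0.271, 0.231 and 0.223. These 4 ratios did not overlap between the genotypes, and the other 5 did. Among the latter, *Relb* over *Nfkb2*, the 2 genes of the noncanonical dimer, was 0.756 ± 0.0989 in HrasG12V and 0.584 ± 0.0946 (SD, n = 3) in WT muscle. *Rel* over *Rela* ranged from 0.0434 in mouse 2276 to 0.268 in mouse 2278.

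**Figure D3:**
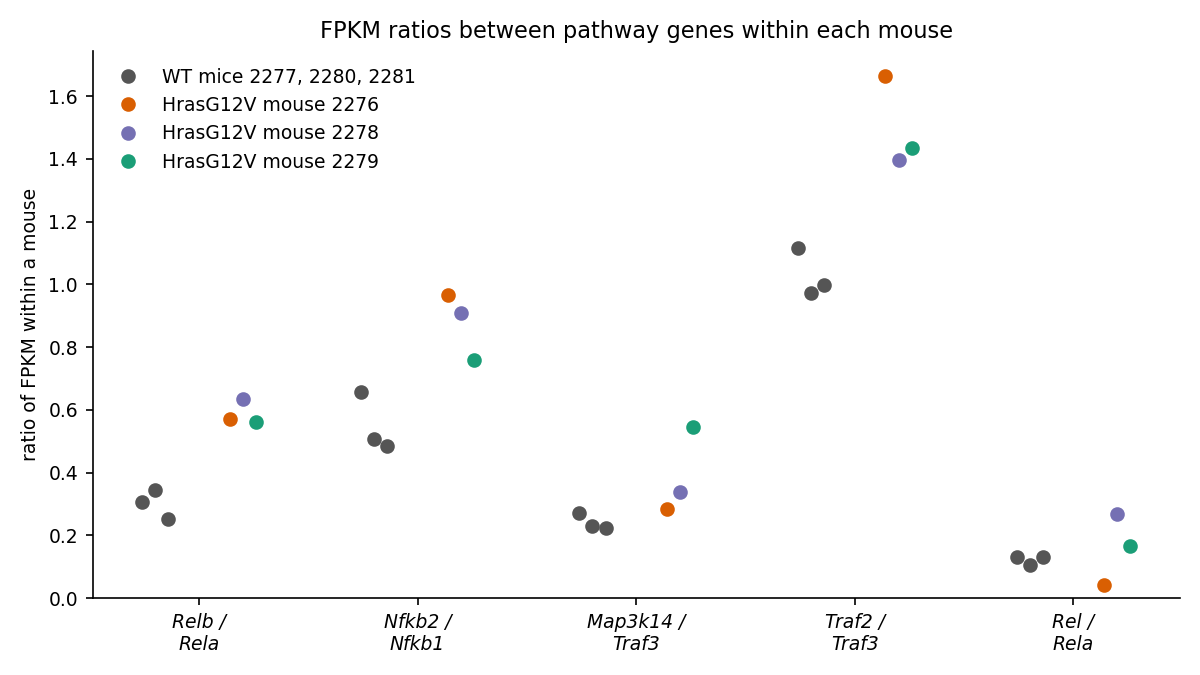
Ratio of the FPKM of 2 genes within each mouse, for 5 of the 9 ratios formed. Points are single mice, WT in grey; *Relb* over *Rela* lies between 0.252 and 0.344 in WT and between 0.563 and 0.635 in HrasG12V mice, and *Rel* over *Rela* overlaps.

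As shares of the summed FPKM of the 5 subunits, which was 35.5 ± 3.99 in HrasG12V and 26.8 ± 1.64 (SD, n = 3) in WT muscle, *Relb* took 17.2% ± 1.65 against 10.4% ± 1.46 and *Nfkb2* 22.9% ± 1.75 against 17.9% ± 1.78. *Rela* took 29.3% ± 4.06 against 34.7% ± 0.497, and *Nfkb1* took 26.2% ± 2.46 against 32.7% ± 2.18. *Rela* remained the most abundant subunit by mean in both genotypes. *Nfkb2* exceeded *Relb* in all 6 mice.

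In a limma fit of the 13359 genes with a mean of at least 0.5 FPKM, 5 of the 10 genes had a higher level in HrasG12V muscle with an unadjusted p below 0.05, namely *Relb*, *Nfkb2*, *Map3k14*, *Traf2* and *Tnfaip3*, against 5.18% of all genes tested. None had a lower level with such a p, against 4.99% of all genes. After Benjamini-Hochberg adjustment over all genes 0 of the 10 passed 0.05 with limma, against 0.0599%. The same 5 genes were above every WT mouse in every HrasG12V mouse, against 8.11% of all genes. With libraries rescaled to the same total FPKM, 1 of the 10 was (*Relb*), against 5.67% of all genes, since mouse 2276 was then at or below the highest WT mouse for the other 9. On that scale *Nfkb2* was at 8.72 in mouse 2276, against 7.68 to 10.3 in the WT group, and *Map3k14* and *Tnfaip3* were below every WT mouse there, at 1.99 and 2.07 per 1000000. In mouse 2276 alone 7 of the 10 were above every WT mouse, but so were 43.1% of all genes, and 2 of the 10 (*Rel* and *Nfkb1*) were above every WT mouse in mice 2278 and 2279 but not in mouse 2276, against 11.8% of all genes. Because the genes were chosen with this contrast in view, these counts describe the choice and support nothing. The count of 5 fell to 2 without WT mouse 2277, 2280 or 2281 or without mouse 2278, to 3 without mouse 2279, and to 1 with libraries rescaled to the same total FPKM.

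The profile of *Relb* over the 6 mice was compared with that of 12177 other genes with a mean of at least 1 FPKM, by the root mean square distance of log2 values centered on each gene's mean. The closest were *Trp63*, a transcription factor of the p53 family, at a distance of 0.0872, the noncoding entry *Rab26os* at 0.127 and *Fxyd5*, an ion transport regulator, at 0.149. *Trp63* was at 5.57, 5.17 and 6.57 FPKM in HrasG12V mice 2276, 2278 and 2279 and at 2.86, 3.51 and 1.98 FPKM in the WT group 2277, 2280 and 2281, the same order of mice as *Relb*. Among the other subunits and regulators *Nfkb2* was the closest, at rank 29 with a distance of 0.245. *Rel* was the farthest, at rank 9853 with 0.843.

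Other genes of the pathway were taken from lists of 95 genes that hold none of the 10, written with earlier results of these data known. Of the 80 that reached the limit of 0.5 FPKM, 19 were higher in HrasG12V muscle with an unadjusted limma p below 0.05 and 1 was lower, against 5.18% and 4.99% of all genes tested, and the median log2 fold change was 0.24. The limit was set on the mean of all 6 mice. Of the 80 genes, 14 had a WT mean below it and reached it only through the HrasG12V mice, where they had to be higher, and none reached it only through the WT mice. These 14 include 7 of the 19 (*Traf1*, *Nfkbie*, *Ltb*, *Ccl2*, *Ccl5*, *Cxcl13* and *Glycam1*), so the count of higher genes and the medians are in part set by the limit and support no direction. Of all 692 higher genes 152 had a WT mean below the limit, and of the 10 subunits and regulators none did. After adjustment over all 13359 genes 0 of the 80 passed with limma. Of the 19, 16 had their lowest HrasG12V value in mouse 2276, and set against the WT mean their median log2 difference was 0.62 in that mouse against 2.05 and 1.94 in mice 2278 and 2279. The count depended on single mice. It was 4, 8 and 7 without WT mouse 2277, 2280 or 2281, 37 without mouse 2276, 5 without mouse 2278 and 8 without mouse 2279. It was 7 with libraries rescaled to the same total and 35 with array weights. On the same-total scale 3 of the 19 were above every WT mouse in every HrasG12V mouse, against 5.67% of all genes. The adjusted count was 24 without mouse 2276 and 20 with array weights. Over all genes these settings also gave more calls, with 1657 higher and 1291 past the adjusted p without mouse 2276 and 1397 and 572 with array weights.

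Ligands and receptors of the noncanonical pathway were mostly low in WT muscle. Of the 8 ligands only 2 reached the limit, *Ltb* through the HrasG12V mice alone. *Ltb*, which encodes lymphotoxin β, was at 0.269, 11.2 and 14.3 FPKM in HrasG12V mice 2276, 2278 and 2279 and at 0.0970 to 0.298 FPKM in the WT group (log2 fold change 3.75, limma adjusted p = 0.473), so mouse 2276 was inside the WT range. *Tnfsf12*, which encodes the TWEAK ligand, was at 19.8, 10.6 and 9.63 against 9.24 to 11.5 FPKM, high in mouse 2276 only. Of the 7 receptors tested, *Tnfrsf1b* had an unadjusted p below 0.05 (log2 fold change 0.86, limma adjusted p = 0.477). The highest log2 fold changes were those of *Tnfrsf13c*, the BAFF receptor of B cells, and *Cd27*, at 2.99 and 1.99, and neither was above the WT range in mouse 2276. Of the 7 receptors 4, these genes included, reached the limit only through the HrasG12V mice. *Ltbr*, the lymphotoxin β receptor, was at 21.5, 15.3 and 14.5 against 14.4 to 15.5 FPKM, and *Tnfrsf11a* at 0.237, 1.09 and 1.18 against 0.306 to 0.503 FPKM. On the same-total scale *Ltbr* was at 26.4, 35.6 and 35.1 against 27.0 to 31.5, with mouse 2276 then below the WT range. *Tnfrsf12a*, the TWEAK receptor and named after its values were seen, was at 55.7, 35.8 and 13.1 against 9.41 to 26.1 FPKM, with overlapping groups.

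The intermediate steps were less uniform. Among 11 TRAFs, cIAPs and adaptors, 4 were higher with an unadjusted p below 0.05, against 5.18% of all genes: *Traf5*, *Tradd*, *Traf3ip3* and, tested only because of its HrasG12V values, *Traf1*. *Traf3ip3* was at 1.58, 5.03 and 4.45 FPKM in HrasG12V mice 2276, 2278 and 2279 and at 1.01 to 1.15 FPKM in the WT group, and *Traf1* at 0.374, 1.74 and 2.52 against 0.250 to 0.330 FPKM (log2 fold changes 1.52 and 1.76, limma adjusted p = 0.398 and 0.481). On the deposited scale all 4 were above the WT range in mouse 2276, as were 43.1% of all genes. There, mouse 2276 was the lowest HrasG12V mouse for *Traf1*, *Traf5* and *Traf3ip3* and the highest for *Tradd*. On the same-total scale it was the lowest HrasG12V mouse for all 4. It was then below every WT mouse for *Traf1* and *Traf5* and inside the WT range for *Traf3ip3*. Only *Tradd* was still above that range in mouse 2276, at 4.11 against 3.66 to 3.97. *Traf6* and *Tank* had the lowest log2 fold changes of this list, at -0.35 and -0.04. *Traf5* and *Traf3ip3*, and *Tnfaip8l2* described next, are also genes that the study chose on these samples, and are no independent evidence of a direction.

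Of 12 IKK genes and upstream kinases, *Map3k7*, the gene of TAK1, was lower with an unadjusted p below 0.05 (log2 fold change -0.40, limma adjusted p = 0.491), and none was higher. The genes *Ikbke* and *Map3k8* had the highest log2 fold changes of this list, at 1.43 and 0.28, and *Tab3* the lowest, at -0.46. *Ikbke* was at 0.671 FPKM in mouse 2276, inside the WT range, and at 2.84 and 4.05 FPKM in mice 2278 and 2279. Of 11 genes listed as ubiquitin editors 1 was higher, *Tnfaip8l2*, which encodes a regulator of immune responses that resembles *Tnfaip3* in name and is not known as a ubiquitin editor. It was at 1.65, 3.36 and 3.18 against 0.568 to 0.910 FPKM (log2 fold change 1.69, limma adjusted p = 0.297). It was the 1 gene of the 19 with an unadjusted p below 0.05 in all 16 alternative settings; *Traf3ip3* and *Tnfrsf1a* missed it only with libraries rescaled to the same total, and each of the other 16 missed it without at least 1 of the mice. *Otulin* was the next highest, at a log2 fold change of 0.49, and *Itch* and *Otud7b* were the lowest, at -0.35 and -0.21, all 3 with overlapping groups. Of 6 other IκB genes, *Bcl3* was higher, as was *Nfkbie*, which was tested only because of its HrasG12V values (log2 fold changes 1.06 and 1.87, limma adjusted p = 0.454 and 0.432). *Bcl3*, which encodes a nuclear IκB protein, was at 1.31, 3.39 and 2.95 against 1.02 to 1.13 FPKM. *Nfkbid*, also tested only because of its HrasG12V values, had a log2 fold change of 1.80 and was below the WT range in mouse 2276. *Nfkbib* and *Nkrf* were at log2 fold changes of 0.41 and 0.05.

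Receptors and adaptors of the canonical pathway had a median log2 fold change of 0.04 over 10 genes, 1 of them with an unadjusted p below 0.05. This was *Tnfrsf1a*, the main tumor necrosis factor receptor, at 29.2, 25.3 and 25.0 FPKM in HrasG12V mice 2276, 2278 and 2279 and at 18.0, 19.8 and 17.3 FPKM in the WT group 2277, 2280 and 2281 (log2 fold change 0.53, limma adjusted p = 0.423, standard error 0.16). On the deposited scale it was as high in mouse 2276 as in the other HrasG12V mice, but per 1000000 of the FPKM sum it was at 35.9, 59.0 and 60.6, with mouse 2276 inside the WT range of 31.6 to 40.4. *Tlr2* was at a log2 fold change of 0.38, and *Tlr3* and *Il1rap* at -0.33 and -0.31, each with overlapping groups. The ligand genes *Tnf* and *Il1a* did not reach the limit, and *Il1b* and *Il18* had log2 fold changes of 1.62 and 1.18 and no p below 0.05, and *Il1b* was tested only because of its HrasG12V values.

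Of 14 known NFκB target genes tested, 5 were higher with an unadjusted limma p below 0.05 and none lower, against 5.18% and 4.99% of all genes, and the median log2 fold change was 0.39; *Ccl5* and *Ccl2*, which are among the 5, were tested only because of their HrasG12V values. The chemokine gene *Ccl5* was at 0.5001, 11.4 and 22.1 FPKM in HrasG12V mice 2276, 2278 and 2279 and at 0.161 to 0.349 FPKM in the WT group (log2 fold change 3.92, limma adjusted p = 0.438). *Ccl2* was at 0.744, 1.38 and 1.16 against 0.259 to 0.542 FPKM (1.20, limma adjusted p = 0.449). The other 3 were *Ccnd1*, *Irf1* and *Vcam1*. On the deposited scale, of these 5 genes only *Vcam1* was not above the WT range in mouse 2276. On the same-total scale only *Ccnd1* was above it in that mouse. *Sod2* and *Gadd45b* had the lowest log2 fold changes, at -0.69 and -0.52, with *Sod2* at 143, 75.3 and 64.6 FPKM against 132 to 151 FPKM. On the same-total scale both were below every WT mouse in every HrasG12V mouse, with *Sod2* at 175, 175 and 156 against 269 to 280. Target genes thus lay on both sides of the WT level within the same mice. The chemokine and adhesion genes that the noncanonical pathway is known to control in lymphoid stroma were separate from these: *Ccl19*, *Ccl21a*, *Cxcl13* and *Glycam1* had an unadjusted p below 0.05, with log2 fold changes of 3.43, 2.11, 4.29 and 6.87, but none was above the WT range in mouse 2276, and *Cxcl13* and *Glycam1* were tested only because of their HrasG12V values. *Cxcl12*, of the same list, was at a log2 fold change of -0.05. Of the 5 genes of this list that were tested, all but *Cxcl12* are also lymph node stroma markers, and the part of lymphoid tissue in them was not tested.

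**Figure D4:**
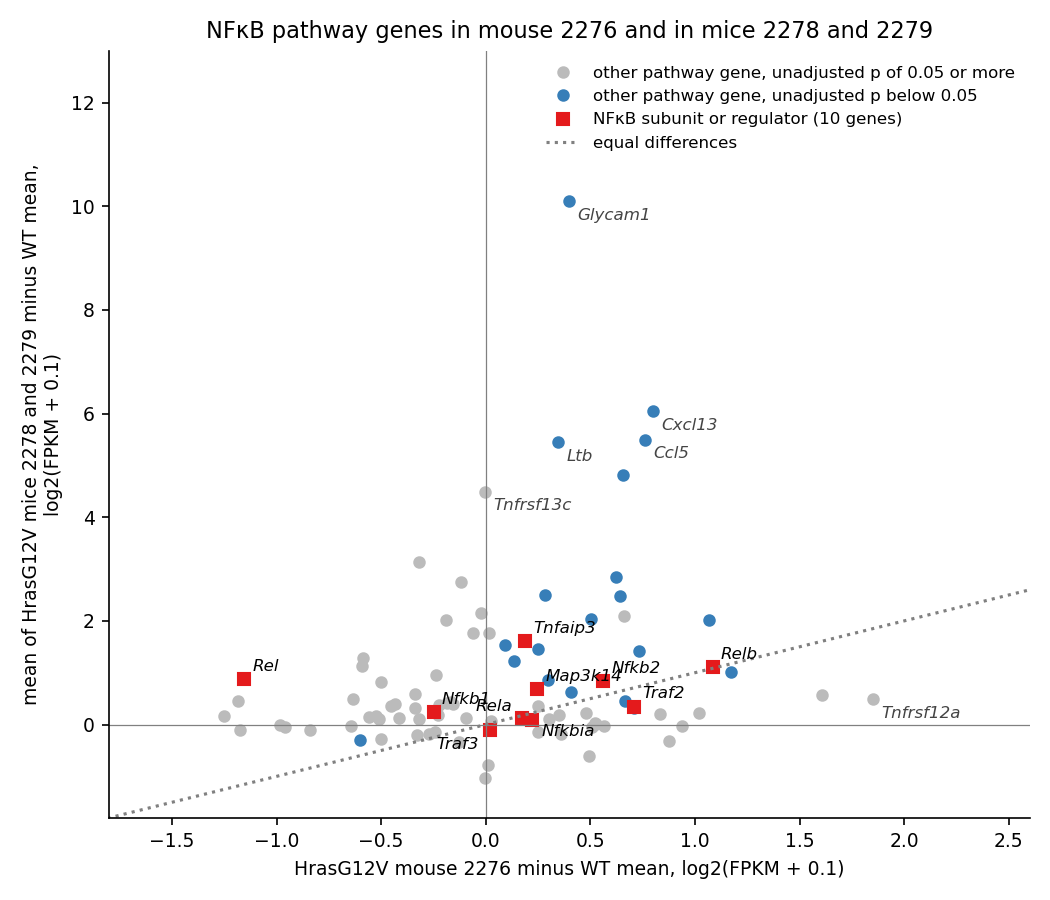
Log2(FPKM + 0.1) difference from the WT mean in HrasG12V mouse 2276 (horizontal) against the mean of that in mice 2278 and 2279 (vertical), for the 10 genes (red squares) and 80 other pathway genes (circles, blue where the unadjusted limma p was below 0.05). On the dotted line both differences are equal; on the deposited scale *Relb* lies near it, *Ltb*, *Cxcl13* and *Glycam1* lie far above it, and *Rel* is on opposite sides of 0 in the 2 directions.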

How the data were processed

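RNAseq of 6 gastrocnemius muscles was analysed, 1 library per mouse. According to the study's methods, stranded mRNA libraries were sequenced as single-end reads, mapped with TopHat and quantified with Cufflinks and Cuffnorm; GRCm38 and mm10 are named in the submitters' processing notes, while for tool versions and annotation the entry is not given in the sources used here. The authors deposited 1 FPKM per gene symbol and library, scaled across libraries by Cuffnorm. Ratios of values under 0.2 FPKM showed steps of whole reads between the WT libraries, where the fullest interval of 1% width held 3.51% to 4.56% of genes and a further peak lay at 2 times its ratio; 1 read in mouse 2277 was worth about 1.02 times its value in mouse 2280 and 0.866 times that in mouse 2281. Between the WT libraries and mouse 2279 the fullest interval held 1.50% to 2.01%, and in pairs with mouse 2276 or 2278 it held 0.748% to 1.19%, with no clear steps. The value of a read also depends on gene lengths that are not in the files, so no reads could be recovered and counts were not modelled; the study's methods give an approximate number of reads per sample, but the depth of each library is not in the files.

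Values were transformed to log2(FPKM + 0.1), genes with a mean of at least 0.5 FPKM were kept, and genotypes were compared with limma 3.58.1 (R 4.3.3, empirical Bayes with a trend, two-sided) with Benjamini-Hochberg adjustment. Fits were tested on simulated data. The 10 genes, the lists, the markers and the omission of mice 2278 and 2279 were chosen with earlier results of these data known. Named were all 10 genes, the 2 highest and 2 lowest log2 fold changes of each list, and the genes closest to *Relb*; others were chosen after their values were seen. The study's methods call the mice littermates, and the labels give no litter, sex or batch. Alternatives were pseudocounts of 1 and 0.01, 2 filters, 3 scalings, no moderation, array weights, and omission of mice. Loci came from GENCODE vM21 and sequences from RefSeq (GRCm38.p6).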

Additional observations from a re-analysis of the deposited data

How the results depend on the processing

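No paired analysis was possible because the mouse numbers are unique and pair no animals across genotypes. Under 16 alternatives no log2 fold change of *Relb*, *Nfkb2*, *Map3k14*, *Traf2* or *Tnfaip3* changed sign, whereas that of *Traf3*, *Nfkb1* and *Nfkbia* did without mouse 2279 (0.06, -0.05 and -0.11) and that of *Rel* without mouse 2278 (-0.22) or 2279 (-0.06); *Nfkb1*, *Rel* and *Traf3* also did without both. With 1 mouse left out at a time, genes with an unadjusted limma p below 0.05 numbered 296 to 1657 higher (692 with all mice) and 310 to 2322 lower (666), and 7 to 1291 passed the adjusted p (8). Other pathway genes numbered 4 to 37 higher (19), 0 to 4 lower (1) and 0 to 24 past the adjusted p (0), the 10 genes 2 to 5 higher, and the noncanonical minus canonical median was 0.29 to 0.67. Rescaling to the same total FPKM gave 379 higher and 333 lower genes, 7 and 2 other pathway genes and 1 of the 10. Array weights gave 1397, 1645 and 572 past the adjusted p, and 35, 3 and 20 other pathway genes. Without moderation 1 gene passed the adjusted p, with 10 and 2 other pathway genes and 3 of the 10. A pseudocount of 1 left 5 genes past the adjusted p, and quantile normalization gave 2 lower pathway genes. Without both mice 2278 and 2279, where the lone HrasG12V mouse is assumed to vary like the WT mice, 3408 genes were higher, 2904 lower and 4200 past the adjusted p, with 15 pathway genes higher, 14 lower, 17 past the adjusted p and 3 of the 10 higher. The cause of these shifts was not tested. No scaling moved the median of all genes by over 0.1 on the log2 scale. The 3 mice per genotype and FPKM without read counts limit what can be seen for low genes such as *Rel* and *Map3k14*.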
